A study of Homo sapiens with 6 samples.

Results

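The clustered protocadherins are cell-surface adhesion proteins of the cadherin superfamily, best known in neurons, where each cell uses a few of the many family members. Their genes form 3 neighbouring clusters, alpha, beta and gamma. Alpha and gamma genes each begin with their own variable exon, which has its own promoter, and splice to constant exons that all genes of the cluster share, whereas beta genes do without shared exons. Many of these promoters carry a conserved element with the core letters CGCT that the insulator protein CTCF can bind, and distant enhancers contact the promoter that a cell uses. Members were taken by symbol, as protein-coding RefSeq genes of chromosome 5 named PCDHA, PCDHB or PCDHG with a number. This gave 53 of 20056 protein-coding genes, with 15 in the alpha cluster, 16 in the beta cluster and 22 in the gamma cluster. On hg38 the alpha genes occupied chr5:140786140-141012347, the beta genes chr5:141051374-141249365 and the gamma genes chr5:141330514-141512975. The 15 alpha genes shared 1 gene end, as did the 22 gamma genes, while the 16 beta genes had 16 different ends.

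The assay was ATAC-seq, which finds open chromatin by the places where a transposase can insert adapters, on Jurkat nuclei, a cell line long established from a human T-cell leukaemia. There were 3 libraries at normal gravity (NG 1 to NG 3) and 3 (SMG 1 to SMG 3) under simulated microgravity. In each, nuclei from 50000 cells were tagged for 30 min at 37 °C, and per the labels the nuclei of the second group, rather than intact cells, were turned in a random positioning machine at 30 degrees per second for 30 min. All 6 libraries came from the same line in the same medium, with no further treatment named, and separate cultures are not stated in the labels, so a p here reflects library-to-library spread, which may be technical. The number of called peaks was 37782 to 43713 at normal gravity and 39624 to 42399 under simulated microgravity, and the lists hold no read counts. As a check of the labelled cell type, the T-cell genes CD3D, CD28 and LCK had a peak at their 5-prime end in all 6 libraries, and CD2 had one in the 3 SMG libraries and in 0 NG libraries. Of 15849 protein-coding genes with a known strand, 46.9% had a peak in all 6 libraries and 14 (0.0883%) were split as CD2 was. The split at CD2 was not tested. The B-cell genes CD79A and PAX5 and the myeloid genes CD14 and CSF1R had none. Of 3 neuronal genes, SYT1 had a peak in all 6 libraries and GAP43 and RBFOX3 in none.

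The sequences just before the gene starts are shown first, because the later results turn on these starts. RefSeq promoter entries of GRCh38.p14 matched 47 of the 53 members, all on the plus strand, and 46 of the entries lay at the RefSeq gene start. Each covers 250 bases before and 50 after that start. The letters CGCT occurred on the plus strand in 45 of the 46, which are 12 of 13 alpha, 14 of 14 beta and 19 of 19 gamma promoters. Over all 35116 RefSeq promoter entries CGCT was also common, at 54.3% on the plus strand and 70.0% on either strand. Below are stretches of 28 bases, 5′ to 3′, with the CGCT that most resembles those of the other genes of the cluster in capitals. They are given for the members with a peak at their start in 3 or more libraries, beside the majority letter at each position of their cluster.
majority of alpha: gccacatgatgtCGCTgtctaccacaaa
PCDHA11: ggcgcaaggtgtCGCTctttacttggtg
PCDHAC1: agaaggtgtggtCGCTcacgttcaccgt
majority of beta: gacgcatggtggCGCTgcaggctaagaa
PCDHB2: gacgcggggtggCGCTgcagccttagaa
majority of gamma: gactctgggcgcCGCTgttgaccaatca
PCDHGB6: gcctctgggcgcCGCTgtcggccagtgc
PCDHGA10: gactctgagcgcCGCTgttcacctacta

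These stretches lie on the plus strand of GRCh38.p14 at chr5:140868887-140868914 for PCDHA11, chr5:140926224-140926251 for PCDHAC1, chr5:141094548-141094575 for PCDHB2, chr5:141407928-141407955 for PCDHGB6 and chr5:141412935-141412962 for PCDHGA10. The called peaks did not always cover these stretches. The PCDHA11 stretch lay under the peaks of NG 2 and SMG 3 only, and the PCDHAC1 stretch under none of that gene's peaks. The PCDHGB6 stretch lay outside the peak of SMG 1, and the PCDHGA10 stretch outside those of NG 1 and NG 2. At PCDHB2 every peak covered the stretch. Across the 45 promoters the chosen CGCT began at a median position of −58 relative to the gene start (range −95 to 3). Longer words around the core, picked after the sequences were read, were shared within a cluster to differing degrees. TGTCGCT was found on either strand in 10 of 13 alpha, 1 of 14 beta and 3 of 19 gamma promoters, and in 1.76% of all promoter entries. GGTGGCGCT was found in 13 of 14 beta and 0 alpha or gamma promoters, and in 0.501% of all entries. GCGCCGCTG was found in 10 of 19 gamma and 0 alpha or beta promoters, and in 1.28% of all entries. Each of the longer words contains CGCT. Every stretch holds CGCT, and each majority was built from the same stretches, picked for likeness, so counts of matching letters are high partly by construction. PCDHA11, the alpha gene with the most constant peak, matched the alpha majority at 16 of 28 letters, where the median alpha promoter matched at 24.5. PCDHAC1 matched it at 13 letters. PCDHB2 matched the beta majority at 24 letters (median 24), and PCDHGB6 and PCDHGA10 matched the gamma majority at 22 and 23 (median 23). TATAAA was in 6 of the 46 and in 11.5% of all entries on either strand.

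Most protocadherin genes had no called peak at their start in any library. A member was counted when a peak touched the window of 1 kb to each side of its 5-prime end, which is the start of the variable exon in the alpha and gamma clusters. Members without a promoter entry have no listed strand and were given the plus strand that all the others share. None of them had a peak in the window. Other genes without a listed strand were left out of the comparison. In all 6 libraries a peak was found at 3 of 53 members (5.66%), PCDHA11, PCDHGB6 and PCDHGA10, against 46.9% of the 15849 protein-coding genes with a known strand. In at least 1 library it was found at 8 of 53 members (15.1%), against 59% of all these genes. Of the other 5, PCDHAC1 had a peak in 4 libraries, PCDHB2 in 3, and PCDHA8, PCDHAC2 and PCDHB13 in 1 each. The remaining 45 members, 11 of the alpha, 14 of the beta and 20 of the gamma cluster, had none. A region under the calling threshold is not listed, so chromatin without a listed peak is not thereby closed, and how reads that match several of these related genes were handled is not stated in the labels.

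The peaks at these 3 starts stood low in their libraries on average. Strength is given as the percentile of a peak among all peaks of its own library, ranked by the deposited −log10 q-value, where 100 is the strongest. Averaged over the 6 libraries, PCDHA11 stood at 34.2, PCDHGB6 at 29.5 and PCDHGA10 at 26.9. Over the 7440 genes with a peak at the 5-prime end in all 6 libraries the median was 81.9, with quartiles of 66.2 and 92.0. When peaks with a −log10 q-value under 5 were left out, 0 of 53 members had a peak in all 6 libraries, beside 42% of all genes. PCDHA11 then had one in 4 libraries (1 NG and 3 SMG) and PCDHGB6 and PCDHGA10 in 3 each (1 NG and 2 SMG). With the same number of peaks in each library, the strongest 37782, 1 of 53 members, PCDHGA10, had one in all 6, beside 46.3% of all genes, an alternative chosen after seeing the data.

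**Figure D1:**
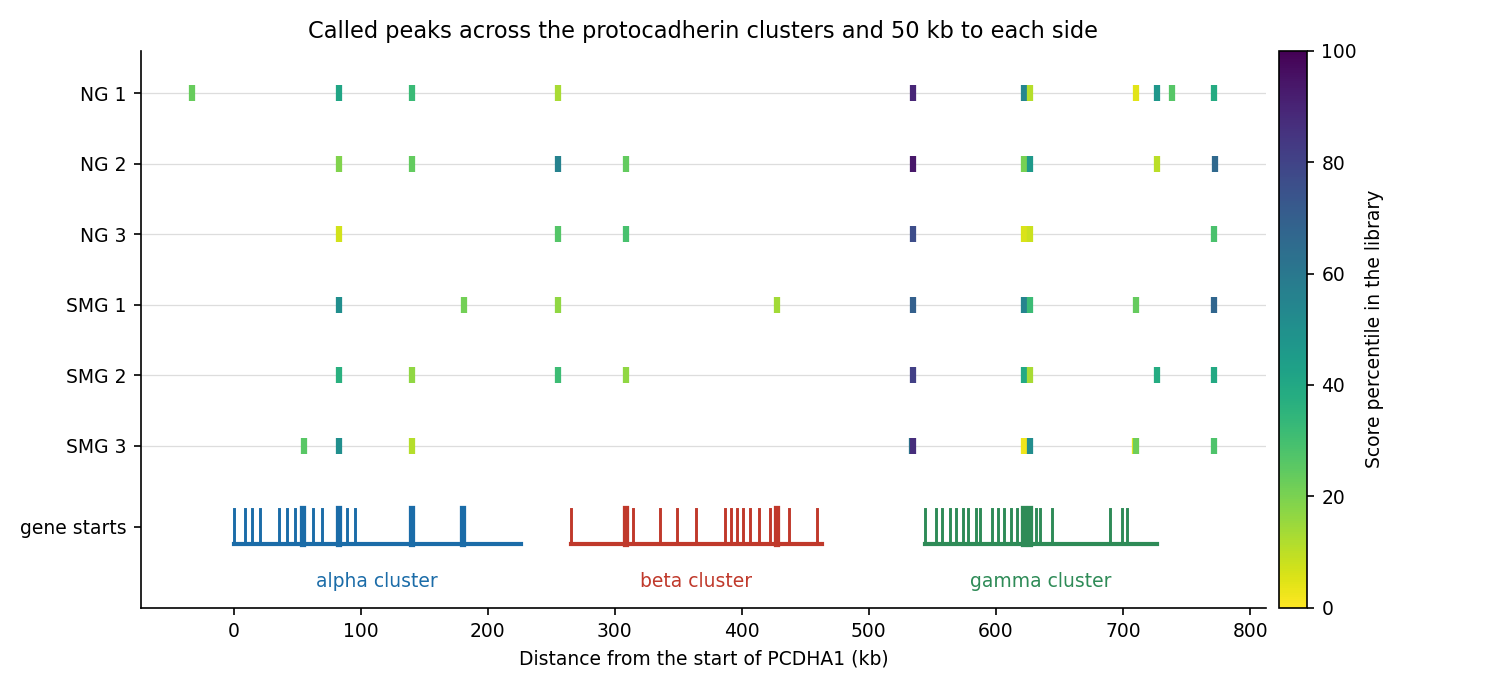
Called peaks of each library across the 3 clusters and 50 kb to each side, by distance from the start of PCDHA1 in kb (horizontal axis) and library (rows), coloured by score percentile within the library. Ticks at the bottom mark the 53 gene starts, thick where a peak lay in the 5-prime window in at least 1 library, and the darkest marks, in all 6 rows, are the start of TAF7.

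In the alpha cluster a single variable exon had a peak in every library. PCDHA11, an alternate alpha isoform, had its peak at percentiles of 41.0, 18.9 and 6.78 in NG 1, NG 2 and NG 3 and of 51.1, 36.6 and 50.8 in SMG 1, SMG 2 and SMG 3. The SMG libraries were the higher ones on average, but the SMG 2 value fell below that of NG 1, so the groups overlapped. The fold enrichment of these peaks, the authors' ratio of summit height to local background, ran from 3.91 to 6.43. The region, chr5:140868834-140869680, also lies inside the long noncoding RNA gene LOC112267934, which runs on the minus strand and whose own start had no peak.

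The C-type isoforms at the 3-prime side of the alpha cluster, which many neurons express together with the alternate ones, gave less constant peaks. PCDHAC1 had a peak at percentiles of 32.3 in NG 1, 24.2 in NG 2, 16.4 in SMG 2 and 11.1 in SMG 3, and none in NG 3 or SMG 1. PCDHAC2 had 1 peak, in SMG 1, at a percentile of 21.2. It ran from 851 to 1094 bp into the gene, with its highest point at 1034 bp, and so touched the window only at its edge. PCDHA8 had 1 peak, in SMG 3, at 25.9. The other 11 alpha genes lay 5.63 to 40.95 kb from the nearest peak of any library. No peak of the 6 libraries fell in the alpha constant region, listed in RefSeq as PCDHACT (chr5:140978949-141012344).

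Between the alpha and beta clusters a region away from any gene start was called in 5 of 6 libraries. It lay at chr5:141040971-141041513, 28.6 kb after the shared end of the alpha genes and 9.86 kb before PCDHB1, outside every gene of the RefSeq table. Its percentiles were 12.9, 55.8 and 26.6 in the NG libraries and 16.5 and 31.3 in SMG 1 and SMG 2, and SMG 3 had no peak there. As background, an alpha-cluster enhancer known as HS5-1 lies downstream of the alpha constant exons. Without its coordinates the region was not matched to it.

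In the beta cluster 0 of 16 genes had a peak in all 6 libraries. PCDHB2 had a peak at percentiles of 24.2 in NG 2, 29.2 in NG 3 and 16.4 in SMG 2 and none in the other libraries. PCDHB13 had a peak in SMG 1 alone, at 13.8. The longest stretch without a peak in any library, between neighbouring called regions, ran for 118.9 kb from 141095080 to 141213972 and held the starts of 12 beta genes, PCDHB3 to PCDHB12 with PCDHB16, and PCDHB13 at its edge. The next, 106 kb from 141214207 to 141320252, held the starts of PCDHB14 and PCDHB15.

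In the gamma cluster a neighbouring pair of variable exons had a peak in every library, PCDHGB6 and PCDHGA10, whose starts lie 4.97 kb apart. PCDHGB6, of the B subfamily (region chr5:141407765-141408324), stood at percentiles of 54.1, 20.4 and 5.63 in the NG libraries and 54.7, 39.7 and 2.47 in the SMG libraries. PCDHGA10, of the A subfamily (region chr5:141412846-141413489), stood at 11.0, 46.4 and 8.001 and at 31.9, 12.99 and 51.3. The ranking of the neighbours changed from library to library within each group. PCDHGB6 was the higher one in NG 1, SMG 1 and SMG 2, and PCDHGA10 in NG 2, NG 3 and SMG 3.

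The other 20 gamma genes, among them the C-type genes PCDHGC3, PCDHGC4 and PCDHGC5, had no peak in their windows and lay 4.19 to 42.8 kb from the nearest one. Past the start of PCDHGC5, inside the gamma genes, a region at chr5:141496080-141496392 was called in NG 1, SMG 1 and SMG 3, at percentiles of 4.39, 23.7 and 22.0. Another at chr5:141512359-141512795, which ends 180 bp before the shared end of the gamma genes, was called in NG 1, NG 2 and SMG 2, at 47.1, 10.3 and 38.5. The RefSeq table gives no exon boundaries, so whether these 2 regions touch constant exons was not examined.

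**Figure D2:**
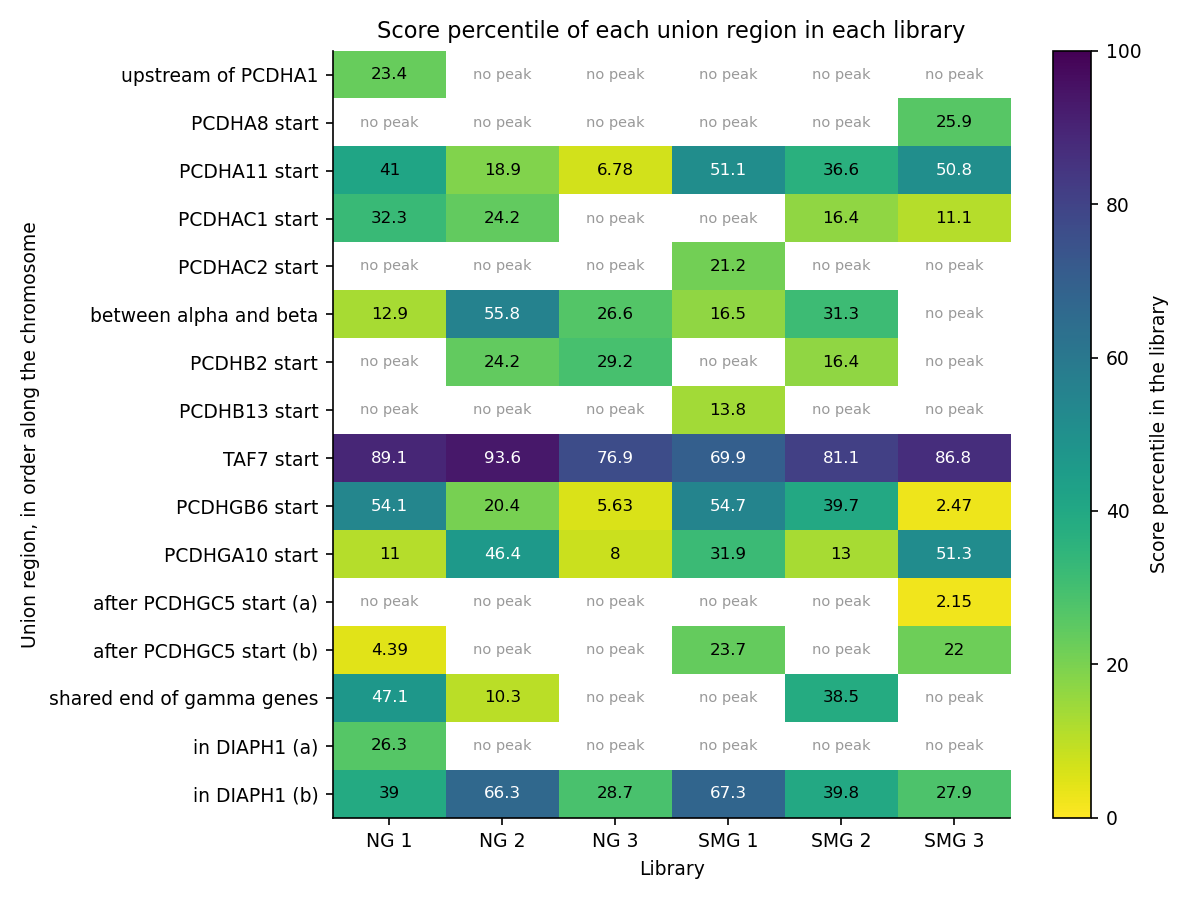
Score percentile within the library (colour and number) of the 16 union regions in the extended clusters (rows, in chromosome order) in each library (columns), with "no peak" where none was called. The rows with 6 values are the starts of PCDHA11, TAF7, PCDHGB6 and PCDHGA10 and a region in DIAPH1.

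Peaks differed between genes in where they sat relative to the start. At PCDHA11 the summit, the highest point of a peak, lay a median of 274.5 bp into the gene, and 2 of 6 peaks crossed the start itself. At PCDHAC1 the 4 summits lay 51 to 335 bp into the gene. At PCDHB2 the 3 summits lay before the start, at −81 to −34 bp, and every peak crossed it. At PCDHGB6 the summits ran from −105 to 138 bp and at PCDHGA10 from −7 to 229 bp, with 5 of 6 peaks crossing the start at each. With the 1 kb before the start alone, 0 of 53 members had a peak in all 6 libraries (41.8% of all genes), and with the 1 kb after it the same 3 members had one (42% of all genes).

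**Figure D3:**
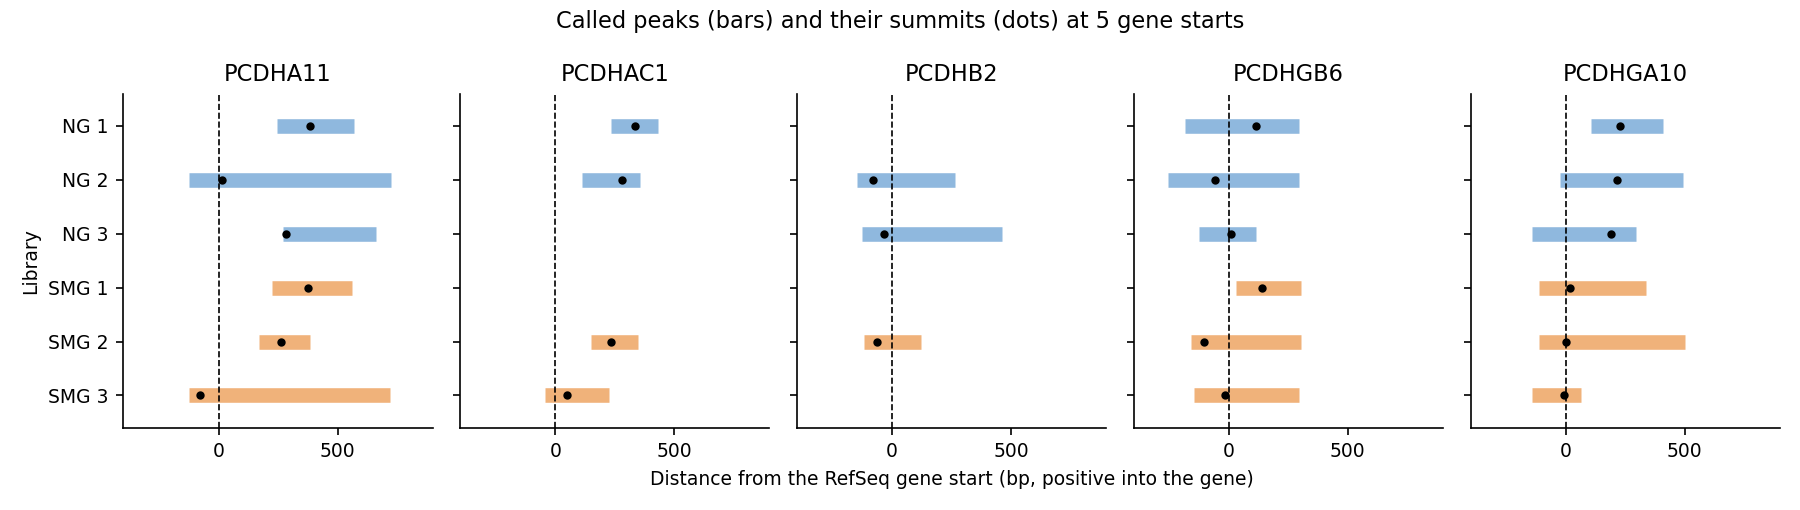
Called peaks (bars) and summits (dots) in each library (rows, NG in blue and SMG in orange) by distance from the RefSeq gene start in bp, positive into the gene, at the 5 members with a peak in 3 or more libraries. Peaks of PCDHA11 and PCDHAC1 lie mostly after the start, and those of PCDHB2 cross it.

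Base composition was described beside the peaks because protocadherin promoters are known to be subject to DNA methylation. The 46 member promoters had a median GC content of 39.7% and a median of 7 CpG dinucleotides in 300 bases, against 58.7% and 14 over all promoter entries. Members with a peak in all 6 libraries had 7, 16 and 5 CpG (PCDHA11, PCDHGB6 and PCDHGA10), and the 38 without any peak had a median of 7 (range 2 to 23). PCDHAC1 had the most, 27, with a peak in 4 libraries, and PCDHGC4 and PCDHGC3 had 23 and 18 with none. These counts cover 250 bases before and 50 after the start, which are often not the bases under the peaks. Most peaks of PCDHA11 and PCDHAC1, and those of PCDHA8, PCDHAC2 and PCDHB13, began further into the gene. Methylation was not measured here.

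**Figure D4:**
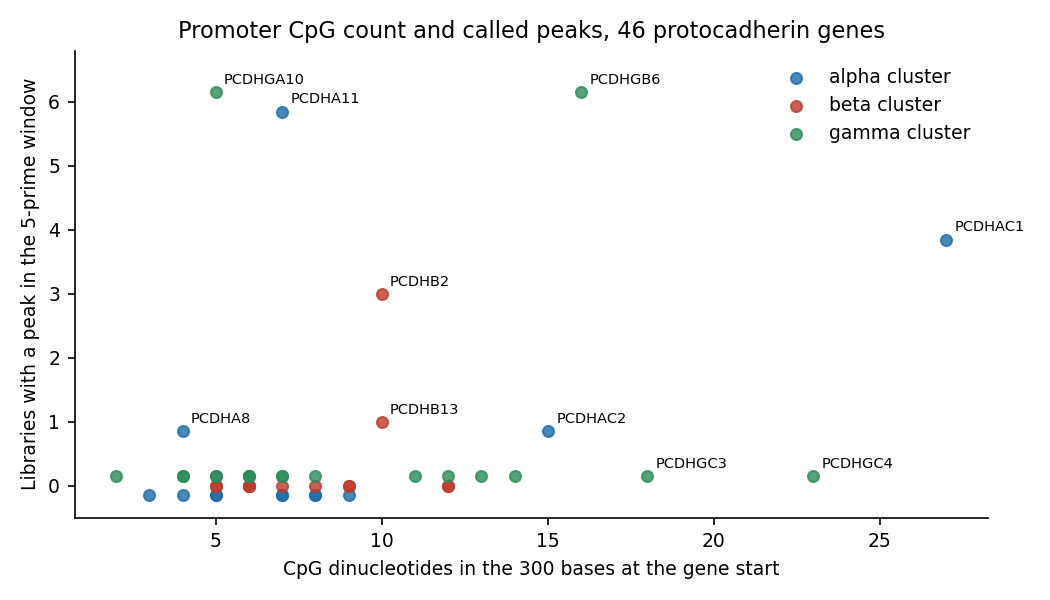
Number of CpG dinucleotides in the 300 bases at the gene start (horizontal axis) and number of libraries with a peak in the 5-prime window (vertical axis, points of a cluster shifted slightly) for 46 members, coloured by cluster. The 300 bases are 250 before and 50 after the start, and many peaks lie outside them. Members with a peak in 6 libraries have 5 to 16 CpG, and most members sit at 0 libraries with few CpG.

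Of the 7 neighbouring genes with a listed strand, 4 had a peak at their start in all 6 libraries, and LOC112267934, LOC124901090 and LOC124901091, which are long noncoding RNA genes, had none. SLC25A2, a protein-coding gene of unlisted strand, lay wholly inside the 106 kb stretch without a peak. TAF7, which encodes a subunit of the general transcription factor TFIID and lies between the beta and gamma clusters, had a peak over its start at percentiles of 89.1, 93.6 and 76.9 in the NG libraries and 69.9, 81.1 and 86.8 in the SMG libraries. Its region, chr5:141320253-141321403, lies 9.11 kb before PCDHGA1. DIAPH1, which encodes a formin that assembles actin, adjoins the gamma cluster with its 3-prime end. Its start, at chr5:141619000, lies more than 50 kb past the gamma genes. A peak was found there in all 6 libraries, at a mean percentile of 86.6. Within DIAPH1, at the start of the antisense gene DIAPH1-AS1 and 44.7 kb after the gamma genes, the region chr5:141557714-141558567 stood at 39.0, 66.3 and 28.7 (NG) and 67.3, 39.8 and 27.9 (SMG). On the other flank LOC105378198, a long noncoding RNA gene, had a peak at its start in all 6 libraries, at a mean percentile of 66.3. That start, at chr5:140711276, lies more than 50 kb before the alpha genes.

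The clusters with 50 kb to each side form 1 span of 826.8 kb, since the extended clusters overlap, and it held 55 peaks of the 6 libraries, from 200 to 1151 bp wide. The alpha span held 4, 3, 2, 3, 3 and 3 peaks in NG 1 to SMG 3, the beta span 1, 2, 2, 2, 2 and 0, and the gamma span 7, 5, 4, 5, 5 and 7, where peaks in an overlap count in both spans. In SMG 3 alone the TAF7 region was called as separate peaks, chr5:141320258-141320465 and chr5:141320657-141321359, each of which is counted. The NG libraries had 1.09 ± 0.242 peaks per 100 kb and the SMG libraries 1.13 ± 0.0698 (SD, n = 3 each), beside 1.30 ± 0.0937 and 1.28 ± 0.103 over chromosome 5. Merged across libraries they made 16 regions, of which 5 (31.2%) had a peak in each of the 6 libraries and 6 (37.5%) in 1 of them. Genome-wide these shares were 34.6% and 34.9% of 69562 regions. The 5 constant regions had a median percentile of 34.2, against 68.4 for all regions held by 6 libraries.

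Whether simulated microgravity changed the clusters was asked over libraries, and with all 6 libraries the groups overlapped in every measure. The span held 11, 9 and 7 peaks in NG 1 to NG 3 and 9, 9 and 10 in SMG 1 to SMG 3, or 9 ± 2 and 9.33 ± 0.577 (SD, n = 3 each, two-sided exact permutation p = 1). Per 10000 peaks of the library this was 2.23 ± 0.612 and 2.26 ± 0.229 (exact permutation p = 0.8). Peaks covered 4279 ± 791 and 3734 ± 216 bases of the span (SD, n = 3 each, exact permutation p = 0.4). This difference, −545 bases, turned to 178 with a −log10 q-value of at least 5 and to 41.7 without the 50 kb extension, and was −88.7 without NG 2. With 3 libraries on each side the smallest possible p is 0.1. Without NG 3 or SMG 3 the SMG minus NG difference in peaks was −0.667 and 0. The count of SMG 3 includes the separately called peaks at TAF7.

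Members with a peak numbered 4, 5 and 4 in the NG libraries and 5, 5 and 5 in the SMG libraries, or 4.33 ± 0.577 and 5 ± 0 (SD, n = 3 each, two-sided exact permutation p = 0.4). NG 2 equalled the SMG libraries in number. NG 2 and SMG 2 had the same 5 members, with PCDHAC1 and PCDHB2 beside the 3 constant ones, whereas SMG 1 had PCDHAC2 and PCDHB13 and SMG 3 had PCDHA8 and PCDHAC1. Of all protein-coding genes with a known strand, 52.9% ± 2.14 and 53.3% ± 1.25 had one (exact permutation p = 0.9). No member had a peak in every SMG library and in 0 NG libraries or the reverse, where 0.0883% and 0.082% of all these genes did. Of the 16 regions, 0 were complete in 1 group while missing from the other, where genome-wide 0.411% were SMG-only and 0.26% NG-only.

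In each of the 5 constant regions the groups overlapped in score percentile. The mean at PCDHA11 was 22.2 ± 17.4 in the NG and 46.2 ± 8.26 in the SMG libraries (SD, n = 3 each, two-sided exact permutation p = 0.2, adjusted p = 0.833 over 5 regions). At PCDHGB6 it was 26.7 ± 24.8 and 32.3 ± 26.9 (exact permutation p = 0.9, adjusted p = 0.9), and at PCDHGA10 21.8 ± 21.3 and 32.1 ± 19.1 (exact permutation p = 0.5, adjusted p = 0.833). The start of TAF7 went the other way, with 86.5 ± 8.66 and 79.3 ± 8.61 (exact permutation p = 0.4, adjusted p = 0.833). The region in DIAPH1 stood at 44.7 ± 19.4 and 44.96 ± 20.2 (exact permutation p = 0.9, adjusted p = 0.9). The difference at PCDHGB6 turned without NG 3 (−4.96) or SMG 1 (−5.62).

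**Figure D5:**
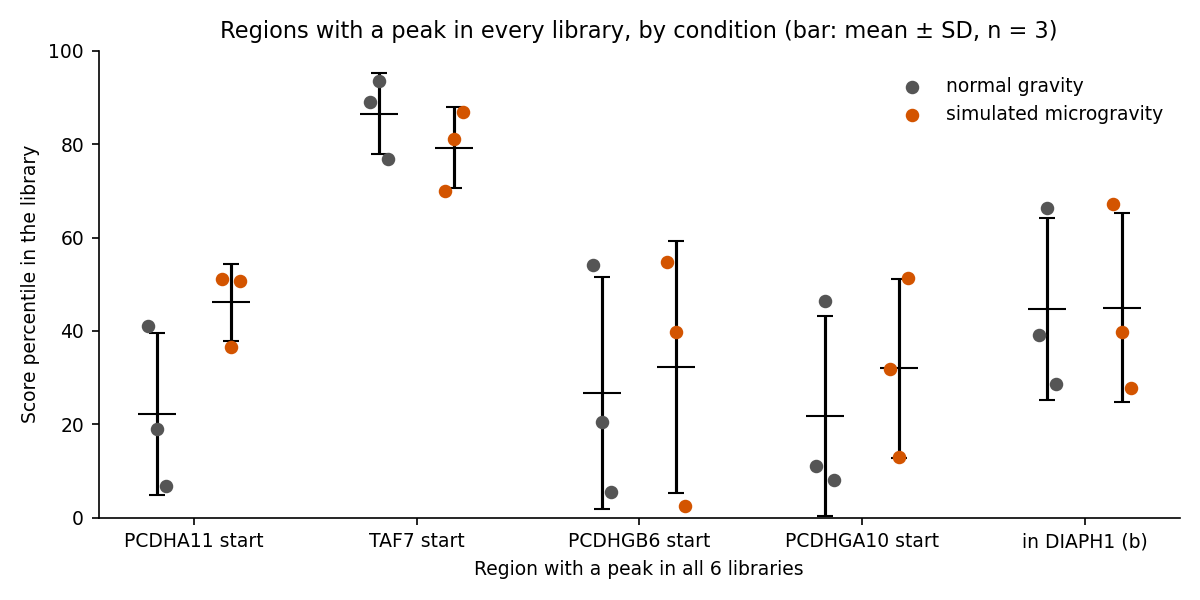
Score percentile within the library (vertical axis) at the 5 regions with a peak in every library, with 1 point per library, normal gravity in grey and simulated microgravity in orange, and bars for mean and SD (n = 3). The 2 conditions overlap at every region, and the PCDHA11 means are 22.2 and 46.2.

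Related genes were read with the same window, from lists that were chosen with earlier results of these data known. Over all 15849 protein-coding genes with a known strand, 46.9% had a peak in all 6 libraries. Nonclustered protocadherins, which are not arranged in such clusters, had a peak in all 6 libraries at 1 of 10 matched members, PCDH9 (mean percentile 96.1). PCDH1 had one in 5 libraries and PCDH18 in 4, and 7 had none. The UGT1A genes, which also join variable first exons to shared ones, had a peak in all 6 libraries at 1 of 8, UGT1A5 (47.0), and none at the other 7. Genes of chromatin looping and of silencing were read too, and whether they act on the clusters in these cells was not tested. CTCF and genes of cohesin, the ring that forms chromatin loops, had a peak in all 6 libraries at 10 of 10 matched members, led by STAG1, SMC3, SMC1A, MAU2, CTCF and WAPL (98.0 to 85.3). Of 18 genes of DNA methylation and silencing, 13 had one in all 6 libraries, led by MPHOSPH8, DNMT1, EED, SUZ12, SETDB1 and PPHLN1 (96.6 to 75.5). TET3, EHMT2 and UHRF1 had none, and DNMT3B had one in NG 1 alone. No gene of these 4 lists was complete in 1 group while missing from the other, where 0.0883% of all genes were SMG-only and 0.082% NG-only.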

How the data were processed

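Each of the 6 Jurkat libraries came with 1 deposited peak list. Per the submitters' processing notes FastQC, BWA, Bowtie, SAMtools, MACS2 and hg38 were used, with versions and settings not given in the sources used here. Peaks were listed per library. In the deposited lists each peak has a score (close to 10 times its −log10 q-value), a fold enrichment at the summit (a ratio to local background), −log10 p- and q-values and a summit position, all the authors' own values. In every list the largest q-value was between 0.0474 and 0.0496. Peak names of SMG 3 carry the word "normalized", which the others lack, and no source says what differed.

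Peaks and RefSeq gene positions (GRCh38.p14) were joined with Python 3.11.15, pandas 2.3.3, numpy 2.4.6 and scipy 1.17.1, and the scripts were tested on simulated peaks. Lists were merged into regions at 1 bp of overlap. Percentiles were taken within each library from the −log10 q-value. Groups were compared over libraries with two-sided exact permutation tests (10 splits of 6 libraries), adjusted by Benjamini-Hochberg where several regions were tested. Peaks on alternate and unplaced chromosome 5 sequences, 37 to 49 a library, were left out, since the gene table places no gene there. Whether such a sequence carries copies of protocadherin genes, whose peaks would then be missing from the counts, was not tested. The members and gene lists were chosen with earlier results of these data known. Named were all members with a peak, neighbouring genes with a region in 3 or more libraries at their start, and at most 6 genes of each other list, those with the highest percentiles, with those lacking peaks where 5 or fewer did. Markers were named in full, and PCDH1, PCDH18, DNMT3B, PCDHGC3 and PCDHGC4 after their values were seen. Alternatives were a stricter q-value, other extensions and windows, an overlap rule, a replicate block and leaving out each library, with equal peak numbers and ranking by fold enrichment added after seeing the data.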

Additional observations from a re-analysis of the deposited data

How the results depend on the processing

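Differences are SMG minus NG, and in every alternative no test passed 0.05, which 3 against 3 libraries cannot reach. With peaks of −log10 q-value of 5 or more, covered bases changed sign (178, from −545), and 2 regions and 0 members were held by all 6 libraries, from 5 and 3. Without extension the covered bases differed by 41.7 and 3 regions were held by all. With 100 kb the difference in peaks was −0.667 and per 10000 peaks −0.238, with 9 regions held by all and 1 by NG only. With the 1 kb upstream alone the difference in members was 0 and 0 members were held by all. Requiring cover of at least 50% of a region left 1. With equal peak numbers 3 regions and 1 member were held by all, and the region in DIAPH1 differed by −1.09, or by −4.22 when ranked by fold enrichment. The cause of these changes was not tested.

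Leaving out each library in turn gave −0.667 to 1.33 for peaks (lowest without NG 3, and 0 without SMG 3), −795 to −88.7 for covered bases (−88.7 without NG 2), 0.5 to 1 for members, and −0.226 to 0.368 per 10000 peaks, negative without NG 2 (−0.0584), NG 3 (−0.226) or SMG 3 (−0.104). PCDHGB6 ranged from −5.62 to 20.5 and the region in DIAPH1 from −10.9 to 11.1, negative without NG 1 (−2.53), NG 3 (−7.71) or SMG 1 (−10.9), whereas PCDHA11 (16.2 to 33.3) and PCDHGA10 (0.654 to 22.5) stayed above 0 and TAF7 (−12.1 to −2.60) below 0. The lowest exact permutation p among these leave-outs was 0.1, the smallest possible. It was reached for PCDHA11 (33.3) and for peaks per 10000 (0.368) without NG 1, and for members (1) without NG 2. PCDHA11 and PCDHGB6 gave no percentile difference under the stricter q-value or equal peak numbers, nor PCDHGA10 under the former, since a library lacked the peak.

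Libraries with the same number did not deviate together (correlations of 4.6e-05, −0.00681 and −0.0158 over 24103 regions). With the replicate block, sign flips of 3 pairs that allow no exact p below 0.25, the differences of 0.333 peaks, −545 bases, 0.0279 per 10000 and 0.667 members had exact p of 1, 0.25, 0.75 and 0.5. Without read counts, peaks under the threshold cannot be seen.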
